A study of Mus musculus with 6 samples.

Results

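The 9 endothelial genes described here make anticoagulant receptors and inhibitors (*Thbd*, *Procr*, *Tfpi*), the initiator of coagulation that *Tfpi* restrains (*F3*), and proteins that form, hold or inhibit plasmin, the enzyme that dissolves fibrin (*Plat*, *Plau*, *Plaur*, *Anxa2*, *Serpine2*). They were chosen by function and found by symbol among 24080 genes of the deposited table, where each of the 9 had a row. VEC-null cells are cultured mouse endothelial cells grown out of embryonic stem cells in which both copies of the VEC gene, *Cdh5*, are mutated. VEC-positive cells are the same line after a retrovirus carried wild-type VEC into it, so both lines bear the null mutation. Total RNA was sequenced in 3 libraries of each line, VEC-null 1, 2 and 3 and VEC-positive 1, 2 and 3, which the study calls biological replicates. One reconstituted line was set against 1 parental line, so p-values measure the spread between libraries, and an effect of VEC cannot be told apart from other differences between the lines.

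Libraries are named here by their labels, because *Cdh5* itself ran against them, with 1487 ± 182 normalized counts (SD, n = 3) in the libraries labelled VEC-null and 761 ± 29.2 (SD, n = 3) in those labelled VEC-positive. *Cldn5*, the gene of the tight junction protein claudin-5, differed in the opposite direction, at 6.38 ± 2.49 with VEC-null and 459 ± 46.7 with VEC-positive labels (SD, n = 3 each, log2 fold change 6.01). A normalized count is the number of reads of a gene divided by the authors' size factor for the library. Recovered reads numbered 6036155 to 14136376 per library. Transcripts of the mitochondrial genome took 9.62% to 14.9% of reads in the libraries labelled VEC-null and 18.0% to 24.2% in those labelled VEC-positive. One library, VEC-null 3, was unlike its group, since a chi-square test of reads gave 6.57 per gene between VEC-null 1 and 2 but 50.5 and 48.6 when either was set against VEC-null 3. Values of the 3 libraries of a group are printed in the order 1, 2, 3. All 12 endothelial markers looked for, *Pecam1*, *Kdr* and *Tek* among them, were above the filter. In the libraries labelled VEC-positive 10 of them were higher and 0 lower (adjusted p under 0.05 from limma), beside 20.9% higher and 16.4% lower of all genes above the filter. *Cldn5*, one of the 10, passed the filter only through the group where it was high. The paper also reports it as a gene that VEC upregulates, so its call is not support for a trend among the markers.

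Coagulation starts when tissue factor, the product of *F3*, meets factor VIIa, and ends in thrombin and fibrin. Resting endothelium opposes this with tissue factor pathway inhibitor and with thrombomodulin, which turns thrombin into an activator of protein C, itself held for activation by the endothelial protein C receptor. Endothelium also secretes tissue-type plasminogen activator, and urokinase bound to its receptor forms plasmin at the cell surface, where the complex of annexin A2 and S100A10 binds plasminogen and its activator.

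Of the 9 genes, 2 rose in the libraries labelled VEC-positive (*F3* and *Anxa2*), 1 fell (*Plat*), 5 did not pass and *Thbd* lay below the filter. The test was limma on log2 values, with adjusted p-values over the 14032 genes with 3 or more libraries at a normalized count of 10 or above. *F3* entered it only through the group where it was high, so its call is not support for a trend among the 9. Over all tested genes 20.9% were higher and 16.4% lower, 37.3% in all, and the 3 calls among 8 tested genes are 37.5%, near that background. Scaling the libraries to equal totals of reads turned 2927 higher and 2304 lower genes into 1566 higher and 4960 lower, and left the calls of *F3*, *Anxa2* and *Plat* as they were. The median log2 fold change was 0.13 over the 8 genes and -0.01 over all tested genes. In *F3*, *Plat*, *Plau* and *Anxa2* the groups did not overlap, as in 50% of all tested genes. In RNA from whole cultures, fewer cells that express a gene and less RNA per cell cannot be told apart.

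**Figure D1:**
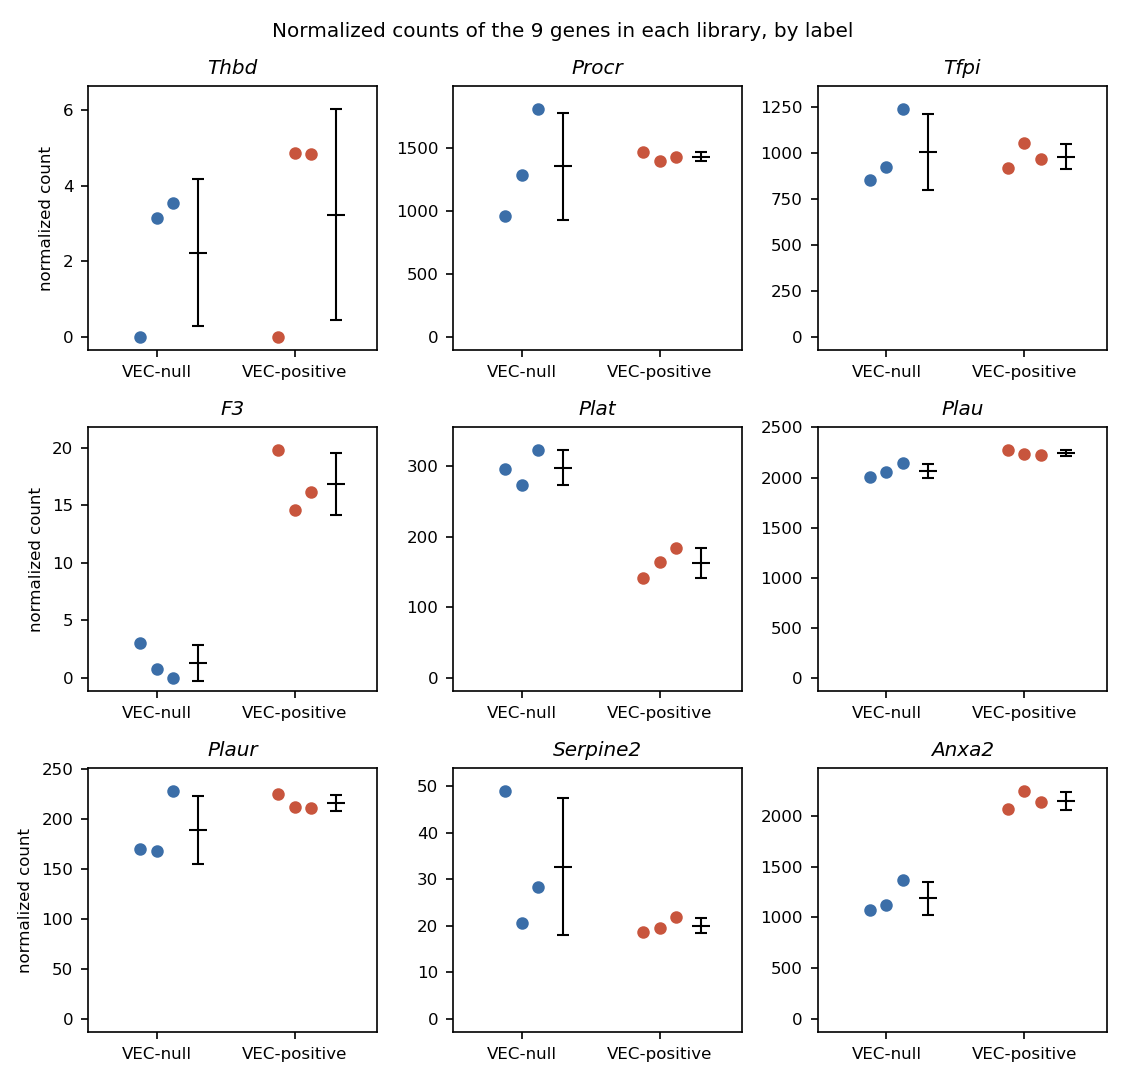
Normalized counts (vertical axis, a separate scale in each panel) of the 9 genes in the 3 libraries labelled VEC-null (blue) and the 3 labelled VEC-positive (red), with the group mean and SD in black. The groups are apart in *F3*, *Plat*, *Plau* and *Anxa2*, and the VEC-null points of *Procr* spread from 961 to 1810.

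To set the genes against each other, normalized counts were divided by the length of the merged exons of each gene. In libraries labelled VEC-positive the order of levels per kilobase ran *Plau*, *Procr*, *Anxa2*, *Tfpi*, *Plaur*, *Plat*, *F3*, *Serpine2* and *Thbd*, and no neighbours in that order overlapped in range. *Plau* had 949 ± 11.7 (SD, n = 3) normalized counts per kilobase there, *Procr* 705 ± 18.1 (SD, n = 3) and *Thbd* 0.870 ± 0.753 (SD, n = 3). *Anxa2*, at 577 ± 23.7 (SD, n = 3) normalized counts per kilobase, came next, but stood before *Procr* when the longest transcript of each gene was taken as its length. In libraries labelled VEC-null the order was alike down to *Plat*, followed by *Serpine2*, *Thbd* and *F3*. *Plau* and *Procr* overlapped in range there, and so did *Thbd* and *F3*. The line thus had much RNA for urokinase and the protein C receptor, and nearly none for thrombomodulin, under both labels.

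**Figure D2:**
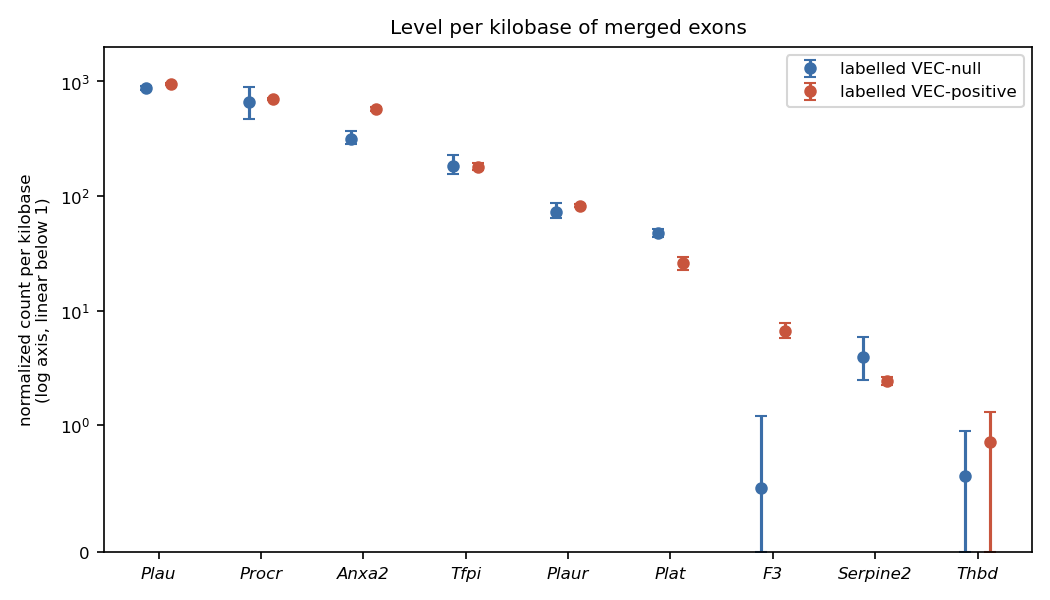
Mean normalized count per kilobase of merged exons (vertical axis, logarithmic above 1 and linear below) of the 9 genes in libraries labelled VEC-null (blue) and VEC-positive (red), with bars from the lowest to the highest of 3 libraries. Levels span from under 1 for *Thbd* to 949 for *Plau*, and *F3* and *Serpine2* change places between the groups.

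*Thbd* (ENSMUSG00000074743, chromosome 2 of mm10 from 148404466 to 148408188), the gene of thrombomodulin, had 0, 4 and 4 reads in the VEC-null libraries, against 0, 5 and 6 reads in the VEC-positive ones. Each group had 1 library at 0, and a count of 0 allows up to about 3 reads at a one-sided 95% limit. The ratio of VEC-positive over VEC-null in reads per unit of depth was 1.34, with a 95% counting interval of 0.492 to 3.85, so no difference was detectable at this depth. *Procr* (ENSMUSG00000027611, chromosome 2 from 155751117 to 155755471), the endothelial protein C receptor, was abundant, with 961, 1285 and 1810 normalized counts in the VEC-null libraries, against 1471, 1398 and 1425 in the VEC-positive ones. The VEC-positive libraries were close together and lay inside the range of the VEC-null ones. Its log2 fold change of 0.13 (95% interval -0.33 to 0.59, adjusted p = 0.637 from limma) did not pass. Without VEC-null 3 it passed, with a log2 fold change of 0.36 (adjusted p = 0.0230), where the other alternatives gave adjusted p from 0.465 to 0.959.

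*Tfpi* (ENSMUSG00000027082, chromosome 2 from 84432855 to 84476775), which encodes the inhibitor of tissue factor and factor Xa, had 851, 924 and 1240 normalized counts in the VEC-null libraries, against 918, 1055 and 968 in the VEC-positive ones. The groups overlapped, with a log2 fold change of -0.02 (95% interval -0.34 to 0.30, adjusted p = 0.930 from limma). *F3* (ENSMUSG00000028128, chromosome 3 from 121723537 to 121735048) was low in every library, with 2, 1 and 0 reads in the VEC-null libraries, against 17, 15 and 20 reads in the VEC-positive ones. All VEC-positive libraries lay above all VEC-null ones, at 16.9 ± 2.68 (SD, n = 3) against 1.28 ± 1.59 (SD, n = 3) normalized counts. The log2 fold change was 3.19 (limma, adjusted p = 0.00384, standard error 0.59), and the ratio in reads was 16.9 with a 95% counting interval of 5.48 to 84.8. At these counts the fitted value follows the pseudocount, from 1.82 with a pseudocount of 5 to 3.71 with one of 0.5. Mural cells and fibroblasts also make tissue factor. The summed normalized count of 9 of their markers was 84.2 to 228 in the VEC-null libraries, against 257 to 307 in the VEC-positive ones. *Pdgfrb* alone had 95.6, 118 and 102 of it there and 0 to 1.77 in the VEC-null libraries. Only *Pdgfrb* of the 5 that could be tested was called higher. *Pdgfrb*, like *F3*, passed the filter only through the group where it was high. *Acta2* (55 reads with VEC-null and 28 with VEC-positive labels), *Tagln* (10 and 4) and *Cnn1* (12 and 0) went the other way. *Pdgfra*, *Myh11*, *Dcn* and *Col1a1* had higher means with VEC-positive labels, and *Col1a2* had 225 and 228 reads. These markers thus did not move together, and their part in the result was not tested.

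The sequence before the start of *F3* is shown with those of *Anxa2*, the other gene that rose, and of *Procr*, which did not pass. Each is the 250 bases before the RefSeq start site on GRCm38.p6, the assembly that mm10 denotes, on the plus strand, at chr3:121723287-121723536, chr9:69453433-69453682 and chr2:155750967-155751216. The GENCODE coordinates start *Anxa2* at 69453620 and *Procr* at 155751117, inside their windows. By those starts the ends of both windows lie within the genes. In *Anxa2*, counted from the RefSeq start, the GC boxes at -48 to -43 and -24 to -19 lie there. So do its KLF box at -7 to -2 and its TATA box. Capitals mark every match, on either strand, to 9 motifs searched. These were the SP1 GC box (GGGCGG), the KLF box (CCACCC), EGR1 (GCGNGGGCG), AP-1 (TGANTCA) and a restricted form of the NF-kB site, not its full consensus. The others were FoxO (TGTTTAC), TCF/LEF (CTTTGAT), CRE (TGACGTCA) and the TATA box (TATAAA).
F3: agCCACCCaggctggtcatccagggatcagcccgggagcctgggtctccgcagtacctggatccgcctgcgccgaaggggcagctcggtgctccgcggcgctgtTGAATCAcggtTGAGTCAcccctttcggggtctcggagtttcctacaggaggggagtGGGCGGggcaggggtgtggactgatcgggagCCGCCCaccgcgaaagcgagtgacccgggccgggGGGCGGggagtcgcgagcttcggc
Anxa2: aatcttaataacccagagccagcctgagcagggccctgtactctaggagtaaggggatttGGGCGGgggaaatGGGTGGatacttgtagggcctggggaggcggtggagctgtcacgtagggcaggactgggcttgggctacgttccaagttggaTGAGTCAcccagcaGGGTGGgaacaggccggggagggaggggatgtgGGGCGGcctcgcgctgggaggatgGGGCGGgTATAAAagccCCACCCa
Procr: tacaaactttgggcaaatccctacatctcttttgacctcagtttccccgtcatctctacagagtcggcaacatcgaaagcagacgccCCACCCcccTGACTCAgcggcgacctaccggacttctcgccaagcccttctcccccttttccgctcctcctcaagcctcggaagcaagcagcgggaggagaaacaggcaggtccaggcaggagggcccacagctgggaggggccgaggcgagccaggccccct
The *F3* window held 3 GC boxes, 1 KLF box and 2 AP-1 matches, and that of *Anxa2* 3 GC boxes, 3 KLF boxes, 1 AP-1 match and a TATA box. That of *Procr* held 1 KLF box and 1 AP-1 match. Sequences were at hand for 6 of the 9 genes, with a pair of starts for *Tfpi*, and AP-1 letters stood in 4 of the 6, *Anxa2*, *F3*, *Plaur* and *Procr*, where 6.75% of 32851 windows of the same length hold them. GC boxes stood in 5 of the 6 against 32.7% of all windows, and the KLF box in 3 of the 6 against 28.1%. *Tfpi* was counted as 1 gene over its windows. The windows of the genes other than *Tfpi* (48.4% and 52.8%) held 59.6% to 78.8% G or C, against a median of 52.4%. The shares over all windows were not matched for this. EGR1 letters overlapped GC boxes in *Plaur* and *Serpine2*, 2 of the 6 against 4.7% of all windows. TATA letters stood in 2 of the 6, *Anxa2* and *Tfpi*, against 12.4%. The NF-kB, FoxO, TCF/LEF and CRE letters were in none of these windows. Of all windows 1.41%, 3.17%, 3.21% and 1.55% hold them, so their absence from the windows of 6 genes says little. Only exact matches were searched, so a site that departs from the letters searched, for NF-kB or another factor, would not be marked. For NF-kB only the restricted form was searched, so the lack of a mark does not show that the *F3* window lacks an NF-kB site. The AP-1 letters are thus shared by genes that rose and genes that did not pass, and a match is a description of the letters.

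The activators of plasminogen differed. *Plat* (ENSMUSG00000031538, chromosome 8 from 22757727 to 22782844), the gene of tissue-type plasminogen activator, had 297, 274 and 324 normalized counts in the VEC-null libraries, against 141, 164 and 184 in the VEC-positive ones. The groups did not overlap, and its log2 fold change was -0.87 (limma, adjusted p = 0.00127, standard error 0.13), a level 1.83-fold lower. *Plau* (ENSMUSG00000021822, chromosome 14 from 20836660 to 20843385), the gene of urokinase, had 2003, 2054 and 2140 normalized counts in the VEC-null libraries, against 2277, 2240 and 2222 in the VEC-positive ones. Its groups lay side by side without overlap, yet the log2 fold change was 0.12 (95% interval -0.03 to 0.27, adjusted p = 0.183 from limma) and it did not pass. Scaled to equal totals of reads, *Plau* was at -0.19 (adjusted p = 0.0504, and up to 0.817 in other alternatives) while the median of all genes moved to -0.32, so the direction of *Plau* follows the scaling.

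*Plaur* (ENSMUSG00000046223, chromosome 7 from 24462484 to 24475968), the receptor of urokinase, had 170, 168 and 228 normalized counts in the VEC-null libraries, against 225, 211 and 211 in the VEC-positive ones. VEC-null 3 was the highest of the 6 and the other two VEC-null libraries were the lowest. The log2 fold change of 0.21 (95% interval -0.12 to 0.53, adjusted p = 0.285 from limma) did not pass, but without VEC-null 3 it was 0.35 (adjusted p = 0.0197, and 0.273 to 0.767 in the other alternatives). *Serpine2* (ENSMUSG00000026249, chromosome 1 from 79794197 to 79861180), which encodes protease nexin 1, an inhibitor of thrombin, urokinase and plasmin, had 49.0, 20.5 and 28.4 normalized counts in the VEC-null libraries, against 18.7, 19.5 and 21.8 in the VEC-positive ones. VEC-null 1, from 32 reads, stood above the rest, the groups overlapped, and the log2 fold change of -0.59 (95% interval -1.38 to 0.19, adjusted p = 0.211 from limma) did not pass. Without VEC-null 1 it was -0.26.

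*Anxa2* (ENSMUSG00000032231, chromosome 9 from 69453620 to 69491795), the gene of annexin A2, had 1068, 1120 and 1370 normalized counts in the VEC-null libraries, against 2073, 2247 and 2134 in the VEC-positive ones. Every VEC-positive library lay above every VEC-null one, and the log2 fold change was 0.87 (limma, adjusted p = 0.000386, standard error 0.10), a 1.82-fold rise. With equal totals it was 0.56 (adjusted p = 0.00223, and 9.36e-13 to 0.00406 over all alternatives). Its partner *S100a10*, which is not one of the 9, had 748, 1024 and 1476 normalized counts in the VEC-null libraries, against 1901, 2262 and 2154 in the VEC-positive ones, and rose with a log2 fold change of 1.01 (limma, adjusted p = 0.00764, standard error 0.22). Both genes of the plasminogen-binding complex were thus higher in the libraries labelled VEC-positive.

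Spread within the libraries labelled VEC-null was the wider one, with a larger SD of the normalized count than in VEC-positive for 7 of the 9 genes and for 69.6% of all tested genes. VEC-null 3 held the highest of the 3 VEC-null values for 7 of the 9, all but *F3* and *Serpine2*, and for 49.0% of tested genes. Without it 4 of the 9 genes were called higher, *Procr* and *Plaur* in addition to *F3* and *Anxa2*, and *Plat* was still lower. Calls over all genes rose too, to 3800 higher and 3359 lower from 2927 and 2304.

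Ratios of a pair of genes in the same library, with 1 added to each normalized count, depend little on how libraries are scaled to each other. Of 4 pairs compared, *F3* to *Tfpi* had groups that did not overlap. Its log2 ratio was -7.71, -9.01 and -10.28 in the VEC-null libraries, against -5.46, -6.08 and -5.82 in the VEC-positive ones. The ratio differed by 3.21, from few *F3* reads (exact permutation test, two-sided, p = 0.1, adjusted p = 0.4 over the 4 pairs), and 0.1 is the smallest p that 3 against 3 libraries allow. The value moved with the pseudocount, from 1.84 with 5 to 3.73 with 0.5, and ran from 2.58 without VEC-null 3 to 3.86 without VEC-null 1. Per kilobase of exons, VEC-positive 1 had 7.85 normalized counts of *F3*, the highest of the 6 libraries, and 168 of *Tfpi*.
The other 3 pairs overlapped. *Plau* to *Plaur* differed by -0.09 (exact permutation p = 0.5, adjusted p = 0.8), *Anxa2* to *S100a10* by -0.14 (exact permutation p = 0.6, adjusted p = 0.8) and *Thbd* to *Procr* by 0.16 (exact permutation p = 0.8, adjusted p = 0.8). A p-value of this size in 3 against 3 libraries does not show that the ratios were alike.

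**Figure D3:**
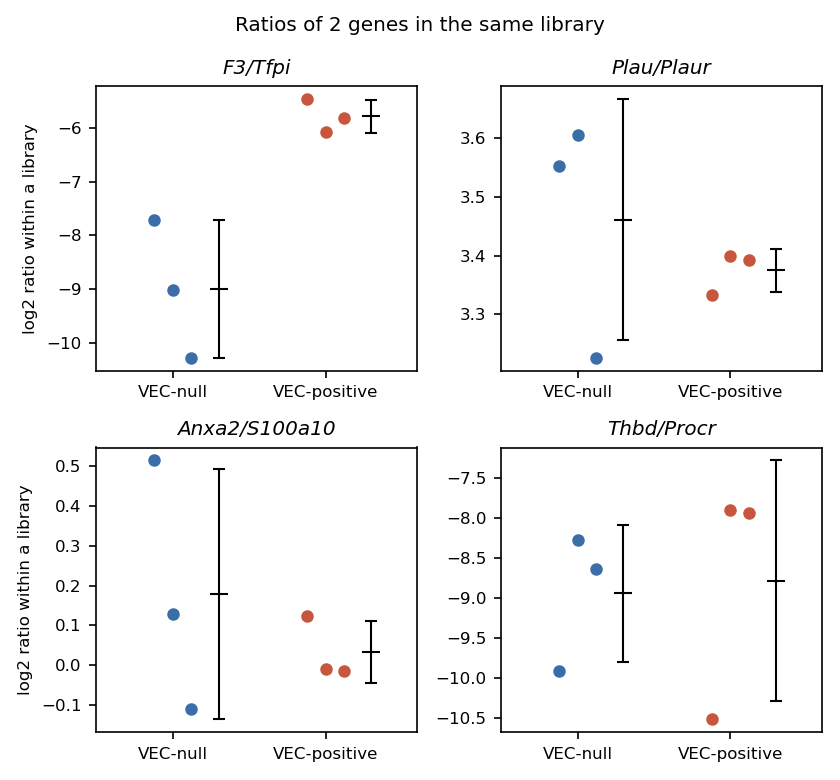
Log2 ratio of the normalized counts of a pair of genes, each with a pseudocount of 1 (vertical axis, a separate scale in each panel), in the 3 libraries labelled VEC-null (blue) and the 3 labelled VEC-positive (red), with group mean and SD in black. Groups are apart in *F3*/*Tfpi*, where all ratios lie below 0, and overlap in the other panels.

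Of 51 other genes of coagulation, fibrinolysis and their transcription factors, 33 had a row used here and 25 passed the filter, of which 12 were higher, 4 lower and 9 did not pass. That is 64.0% called, against 37.3% of all tested genes, and their median log2 fold change was 0.13. The lists were drawn up by function with earlier results known, so this is a description.
Among coagulation factors 3 of 14 passed the filter and limma called 0 of them at an adjusted p under 0.05, with 1 (*F9*) at an unadjusted p under 0.05 and the same 1 in edgeR and in DESeq2. *F8*, the gene of factor VIII, which endothelium makes, was the most abundant, at 9526 ± 2004 normalized counts with VEC-null and 9197 ± 574 with VEC-positive labels (SD, n = 3 each, log2 fold change -0.03, 95% interval -0.36 to 0.30). Its 962 and 929 normalized counts per kilobase were near those of *Plau*, and it overlaps *Fundc2* on the other strand, with 4356 reads in all libraries. *F9*, the gene of factor IX, had 320, 265 and 112 normalized counts in the VEC-null libraries, against 100.3, 72.1 and 139 in the VEC-positive ones. It did not pass (log2 fold change -1.07, adjusted p = 0.0663, and 0.000883 to 0.207 over the alternatives), its VEC-null 3 value lying inside the VEC-positive range, and passed without VEC-null 3 (-1.53, adjusted p = 0.000883). *F10* was the third, with a log2 fold change of -0.42 (adjusted p = 0.654).
Of the 4 receptors of thrombin and related proteases, *F2r*, which encodes the thrombin receptor PAR1, rose from 3676 ± 860 to 6163 ± 175 normalized counts (SD, n = 3 each, log2 fold change 0.77, adjusted p = 0.00479). *F2rl3*, the gene of PAR4, was at 0.03 on the log2 scale (adjusted p = 0.885) and the other two were below the filter.

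Of 7 other anticoagulant genes that could be tested, *Pros1* was higher and *Entpd1* and *Nt5e* were lower, and the other 4 did not pass. *Pros1*, the gene of protein S, the cofactor of activated protein C, rose from 1429 ± 136 to 2468 ± 21.8 normalized counts (SD, n = 3 each, log2 fold change 0.79, adjusted p = 0.000210). *Entpd1* encodes CD39, an ectoenzyme that removes ATP and ADP and so restrains platelets. It had 1864, 2062 and 2541 normalized counts in the VEC-null libraries, against 199, 206 and 185 in the VEC-positive ones. The groups lay far apart, and *Entpd1* was 10.8-fold lower (log2 fold change -3.44, standard error 0.12, adjusted p = 8.82e-07). *Nt5e*, whose product CD73 turns the AMP that CD39 leaves into adenosine, was at 18.2 ± 4.77 and 6.79 ± 2.11 and was also lower (SD, n = 3 each, log2 fold change -1.31, adjusted p = 0.0289). *Nt5e*, like *F3*, passed the filter only through the group where it was high. Over 16 alternatives its adjusted p ran from 0.0109 to 0.110, and 7 ended the call, which were the replicate block (0.0767), DESeq2 (0.0850), the fit with no filter (0.0552), and the fits without VEC-null 1 (0.0768) or 2 (0.110) or VEC-positive 1 (0.0900) or 2 (0.0689). *Anxa5*, *Ggcx*, *Hs3st1* and *Serpinc1* had log2 fold changes from -0.29 to 0.13 and did not pass.
In the list of other fibrinolytic genes, 6 were tested, of which 3 rose, 2 fell and *Plgrkt* did not pass. *Serpini1*, the gene of neuroserpin, an inhibitor of tissue-type plasminogen activator, had 49.0, 52.8 and 94.0 normalized counts in the VEC-null libraries, against 140.0, 170 and 132 in the VEC-positive ones (log2 fold change 1.22, adjusted p = 0.00706). *Lrp1*, a receptor that clears protease and inhibitor complexes, went from 16.8, 28.4 and 40.8 to 162, 164 and 170 normalized counts (log2 fold change 2.57, adjusted p = 0.000323). *S100a10*, described above with *Anxa2*, also rose. *Mmp14*, a membrane-bound matrix protease, and *Eno1*, an enzyme of glycolysis that also binds plasminogen, were lower. *Mmp14* was at -0.70 on the log2 scale (adjusted p = 0.000408) and *Eno1*, which has close copies in the genome that can share its reads, at -0.54 (adjusted p = 0.00369). *Plgrkt*, a plasminogen receptor, did not pass (log2 fold change 0.13).

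**Figure D4:**
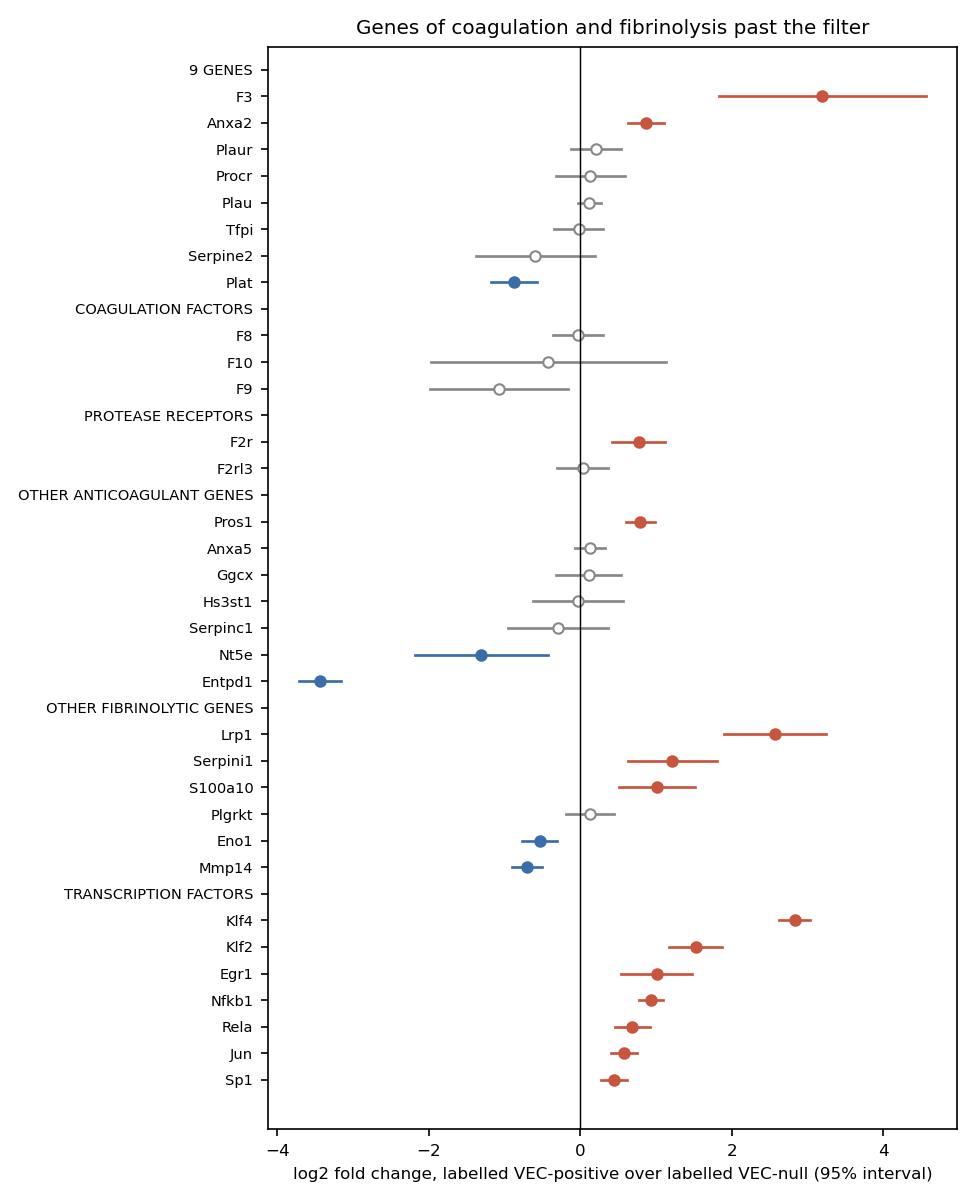
Log2 fold change, VEC-positive over VEC-null by label (horizontal axis, with 95% intervals from limma) of the 8 tested genes and of 25 other tested genes in 5 lists. Filled red points passed as higher, filled blue as lower, and open grey points did not pass; among the 8, *F3* and *Anxa2* lie to the right and *Plat* to the left.

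Of 8 transcription factors known to act on *Thbd* or *F3*, 7 could be tested and all 7 were higher, where 20.9% of tested genes were higher. *Klf4* and *Klf2*, which induce *Thbd* in other endothelial cells, rose from 129 ± 7.16 to 924 ± 32.0 and from 308 ± 60.7 to 882 ± 95.4 normalized counts (SD, n = 3 each, log2 fold changes 2.84 and 1.53, adjusted p = 5.95e-07 and 0.000155 from limma), while *Thbd* stayed at 0 to 6 reads per library. *Nfkb1*, *Rela*, *Egr1* and *Jun* had log2 fold changes of 0.93, 0.69, 1.01 and 0.58. *Sp1*, at 0.45 (adjusted p = 0.00230), did not pass with libraries scaled to equal totals (0.13, adjusted p = 0.207). It passed in the other alternatives, where the adjusted p ran from 6.08e-05 to 0.0170. *Fos* was below the filter. The part of these factors in the results for *F3* and *Thbd* was not tested.

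Markers of other cells were low beside those of endothelium. Of 7 markers of monocytes and macrophages, which carry *Plaur* and can express *F3*, 3 were tested and did not pass in limma. *Ptprc* had 2 reads with VEC-null and 4 with VEC-positive labels, and *Cd14* had 0 and 8 (1, 5 and 2 by library), with groups that did not overlap. That is the direction of *F3*, as is that of *Csf1r*, with 48 and 85 reads. *Lyz2* (7 and 1 reads, groups that did not overlap), *Cd68* (68 and 33) and *Itgam* (853 and 415) went the other way. The part of these markers in the result for *F3* was not tested. The normalized counts of 6 such markers summed to 133 to 438 in the VEC-null libraries, against 148 to 202 in the others, where the 12 endothelial markers summed to 51267 to 54276 and 74779 to 76905. Of 4 markers of megakaryocytes and platelets *Itga2b* was higher (log2 fold change 1.64, adjusted p = 0.00544) and the other 3 were below the filter, with sums of 29.1 to 63.8 and 88.6 to 114. *Pf4* went the other way, with 41 reads in the VEC-null libraries and 15 in the others (read ratio 0.357, 95% counting interval 0.184 to 0.660). All epithelial and pluripotent markers were below the filter. The larger share of mitochondrial reads, the endothelial markers and *Itga2b* moved with the labels and so with every call given here, and their part in these calls was not tested.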

How the data were processed

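A stranded kit for total RNA gave 3 libraries each of VEC-null and VEC-positive endothelial cells, and titles set the groups. Tools named per the labels are DESeq2, TopHat2 2.1.1 and Trim Galore, with mm10 as the genome. What counted the reads, and with which annotation and strand setting, was not given in the sources used here. Signal values, as deposited by the authors, are reads per gene after division by the size factor of the library. Every value was a whole multiple of the smallest in its library, within 0.01 of a read (100% of values), so reads were recovered. Symbols and coordinates are from GENCODE M21, which matched 23908 of 24080 genes.

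Log2 values with a pseudocount of 1 were compared with limma 3.58.1 (R 4.3.3), using its trend of variance on mean level and two-sided tests. P-values were adjusted by Benjamini-Hochberg over the 14032 genes past the filter (3 or more libraries at 10 or above), with a threshold of 0.05. Fold changes are on that scale, which understates changes of low genes. Alternatives were a pseudocount of 0.5 or 5, no filter or one of 50, 3 other scalings, limma without the trend, counts of recovered reads in edgeR 4.0.16 and in DESeq2 1.42.0, the replicate number as a block, and leaving out each library. The scripts were tested on simulated data. Counting intervals are exact (binomial, 95%) and cover counting error only, since PCR duplicates are counted as reads. Promoters are from RefSeq (GRCm38.p6). The 9 genes and all lists were chosen with earlier results of these data known. All 9 are described, and of the pathway lists every gene past the filter could be named. Promoter motifs were chosen after the data were seen. One gene of the pathway lists is not reported here, and other experiments of the study were not analysed here.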

Additional observations from a re-analysis of the deposited data

How the results depend on the processing

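The calls of *F3*, *Anxa2* and *Plat* kept their direction and their side of the threshold in every alternative that gave them a value, 16 for *F3* and 17 each for the others. Left-out libraries gave log2 fold changes of 2.72 to 3.73 for *F3*, 0.80 to 0.97 for *Anxa2* and -0.96 to -0.77 for *Plat*. The stricter filter removed *F3*, which left 1 of the 9 genes higher, and *Serpine2*, and *Thbd* had a value only without a filter (log2 fold change 0.29, adjusted p = 0.858 from limma). With 1 library left out, 2 to 4 of the 9 genes were higher, 4 without VEC-null 3, and *Procr* then ranged from -0.092 to 0.36 (reversed without VEC-null 1), *Tfpi* from -0.13 to 0.14 (above 0 without VEC-null 3, or at 0.028 without VEC-positive 1) *Plaur* from 0.13 to 0.35 and *Serpine2* from -0.87 to -0.26. Over all genes 2111 to 3800 were then higher and 1585 to 3359 lower. The library that decided *Procr* and *Plaur* was VEC-null 3, and the cause was not tested.

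Libraries scaled to equal totals gave 1566 genes higher and 4960 lower, against 2927 and 2304, and moved the median of all genes from -0.01 to -0.32. There *Procr* was at -0.18, *Plau* at -0.19, *Plaur* at -0.10, *F2rl3* at -0.28, *Anxa5* at -0.18, *Ggcx* at -0.20 and *Plgrkt* at -0.18, all on the other side of 0 and above that median, and none of them passed. With mitochondrial genes left out of the totals (median -0.16) the same 7 except *Plaur* were below 0, *Procr* at -0.016, *Plau* at -0.024, *F2rl3* at -0.11, *Anxa5* at -0.015, *Ggcx* at -0.034 and *Plgrkt* at -0.012. *F9* passed there (adjusted p = 0.0386), with equal totals (0.0242), in edgeR (0.0460) and in DESeq2 (0.00635). Other signs that turned with 1 library left out were all of genes that did not pass, *F8* (-0.13 to 0.13), *F10* (-0.99 to 0.38), *F2rl3* (-0.044 to 0.17), *Hs3st1* (-0.12 to 0.072) and *Ggcx* (-0.042 to 0.31), and of the ratios *Anxa2*/*S100a10* (-0.29 to 0.023) and *Thbd*/*Procr* (-0.33 to 1.03).

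Same-numbered libraries deviated from their group means with correlations of 0.0763, -0.333 and -0.295, so they did not deviate together. Libraries of different number gave -0.225 to 0.39. Deviations from means of 3 libraries cannot exclude that same-numbered libraries were prepared together. With the replicate block, 2400 genes were higher and 1744 lower, 2 of the 9 genes were higher and 1 lower, and in the pathway lists 12 were higher and 3 lower, *Nt5e* being lost (adjusted p = 0.0767). With the longest transcript as length, levels per kilobase in VEC-null and VEC-positive were 253 and 247 for *Tfpi*, 73.8 and 40.3 for *Plat*, 93.8 and 107 for *Plaur*, 9.61 and 5.89 for *Serpine2* and 520 and 944 for *Anxa2*, and in VEC-positive 890 for *Procr* and 9.01 for *F3*; these exceed those of merged exons by construction. Depth limits *Thbd*, *F3* in VEC-null, *Fos* and *F10*.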

Other observations

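Below the filter were 8 genes of the pathway lists, each with few reads. *Plg*, the gene of plasminogen, had 2 reads in the libraries labelled VEC-null and 0 in those labelled VEC-positive, and *F5*, the gene of factor V, had 5 and 3. *Vkorc1*, an enzyme of the vitamin K cycle that activates coagulation factors, had 10 and 12 reads, but a protein-coding gene on the same strand, *Gm21974*, overlaps it, and how shared reads were counted is not stated. *F13a1*, the gene of the enzyme that crosslinks fibrin, had 18 and 12 reads, of which 12 were in VEC-null 1. *F2rl1* had 2 and 4 reads, *F2rl2* 0 and 4, *Serpina10* 2 and 5 and *Fos* 25 and 19.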
